A study of Mus musculus with 6 samples.

Results

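The enzymes of the tricarboxylic acid (TCA) cycle were followed in brown adipose tissue (BAT) of mice fed a low-fat diet (LFD) or a high-fat diet (HFD). The genes described are *Cs*, *Idh3a*, *Idh3b*, *Idh3g*, *Ogdh*, *Dlst*, *Suclg1*, *Fh1* and *Mdh2*, which were picked by name as 9 of the 47729 genes in the tables, and all 9 were found and passed the filter on low counts. RNA came from the BAT of wild type male C57BL/6J mice that were 6 weeks old at the start and 10 weeks old at the end of 4 weeks of feeding. The HFD group (n = 3) received a diet labelled as 45% high-fat and the LFD group (n = 3) a standard rodent diet. Each library was 1 mouse. The mice had been chosen for sequencing by their fat mass, as the greatest, the medium and the least of each diet, so the spread within a diet includes that choice.

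The TCA cycle takes place in the mitochondrial matrix, where acetyl-CoA from fatty acids, glucose and amino acids is oxidised to carbon dioxide. The electrons it releases are carried by NADH and by succinate to the respiratory chain. In brown adipocytes, cells packed with mitochondria, uncoupling protein 1 (*Ucp1*) lets protons back into the matrix so that respiration yields heat, and the cycle supplies that respiration. Citrate that leaves the matrix through its carrier *Slc25a1* is in turn cleaved by *Acly* to build fatty acids.

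A library held 17156991 to 21603487 rounded counts. Mitochondrially encoded genes took from 3.87% (LFD replicate 3) to 22.7% (HFD replicate 1) of the counts. The labelled tissue was checked against marker lists, in TPM, a level per transcript length that sums to the same total in each library, and triplets of values are given for replicates 1, 2 and 3 in that order. *Ucp1* had TPM values of 2728, 4021 and 796 under HFD and 443, 11.0 and 76.0 under LFD. LFD replicate 2 therefore carried little of the defining brown fat transcript. The summed level of 20 skeletal muscle markers was, in TPM, 94.9, 266 and 25.9 under HFD and 6768, 16027 and 2273 under LFD, so the diets lay apart in muscle RNA, and all 20 markers were lower in every HFD-fed mouse. None of the muscle markers was at 0 TPM in any mouse. The part of muscle RNA and of brown adipocyte content in the values below was not tested.

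The 9 genes were lowest in one and the same mouse of each diet. Their summed level was 3535, 4076 and 1607 TPM in HFD replicates 1, 2 and 3 (mean 3072 ± 1298, SD) and 2717, 1489 and 830 TPM in LFD replicates 1, 2 and 3 (mean 1679 ± 958, SD). Replicate 3 was the lowest in both diets, and the HFD-fed mouse had the higher sum in each of the 3 same-numbered pairs. LFD replicate 1 lay above HFD replicate 3, so the diets overlapped. In these whole-tissue samples, fewer cells of a type and less RNA per cell cannot be told apart. Each member rested on 920 to 28676 rounded counts in a mouse, and the credibility interval that accompanies its TPM, which covers counting and read assignment within that library, was 2.58% to 17.2% of the TPM wide. The spread between mice was far larger, since the highest mouse of a diet had 2.04 to 5.39 times the TPM of the lowest.

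**Figure D1:**
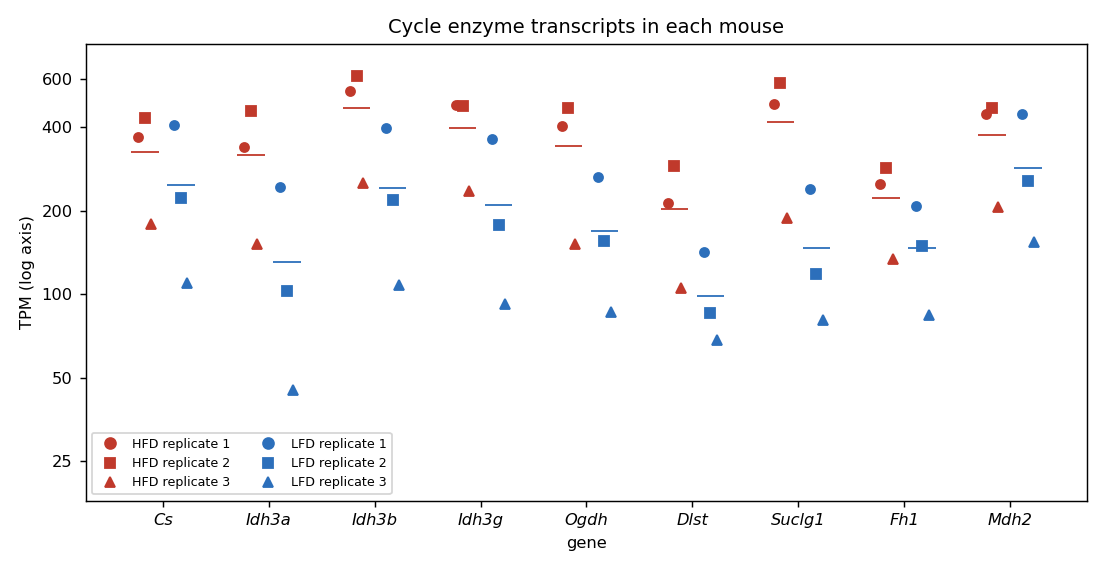
TPM of the 9 cycle enzyme genes (log axis) in each mouse, with HFD-fed mice in red and LFD-fed mice in blue. Symbols mark the replicate number and horizontal lines the diet means; in all 9 genes replicate 3 is the lowest mouse of its diet, and LFD replicate 1 lies above HFD replicate 3.

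All 9 genes had a higher mean in HFD-fed mice, and none met the cutoffs used in the study (1.5 for the size of the log2 fold change, with 0.01 for the adjusted p). The study set these cutoffs on another count model, DESeq2, while edgeR is the main fit here. By the same cutoffs, DESeq2's default settings called 411 of 29805 genes tested and 0 of the 9 members. Across all 17668 genes tested with edgeR's quasi-likelihood test, the log2 fold change of HFD over LFD was above 0 in 45.6%, the cutoffs called 0%, and the median was -0.05. For the 9 members the median was 1.05 (0.45 to 1.57), and the edgeR adjusted p-values were 0.561 to 0.919. At an unadjusted p under 0.05, 0 of the 9 were higher, beside 3.86% of all genes. The groups of log2 CPM, library-scaled counts on a log2 scale, overlapped in all 9, while 6.72% of all genes lay fully higher and 9.23% fully lower in HFD-fed mice. On the log2(TPM + 1) scale, exact two-sided permutation tests gave p = 0.2 to 0.6 per gene, where 3 mice against 3 cannot go below 0.1. The median of 1.05 depended on single mice. It was 2.05 without LFD replicate 1, 0.62 without HFD replicate 1 and 0.61 without LFD replicate 3.

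The replicate numbers changed this picture. Mice with the same number deviated from their diet means together, so a fit with the number as a block was set beside the first. Neither the labels nor the study's description pairs the mice of the diets by number. The block thus rests on a likeness seen in these same data, and its p-values depend on that choice. There, the median log2 fold change of the 9 members was 1.22, with 8 of the 9 higher at an unadjusted p under 0.05, where the same fit gave 8.75% of all genes as higher and 8.76% as lower. The adjusted p-values of edgeR in the blocked fit were 0.0960 to 0.344, and 0 of the 9 were called, as were 0 of all 17668 genes. On the log2 CPM scale, 8 members were higher in the HFD-fed mouse of all 3 pairs, as were 21.1% of all genes. Within the pairs the members' differences in log2 CPM were -0.02 to 1.15 for replicate 1, 1.11 to 2.46 for replicate 2 and 0.76 to 2.09 for replicate 3. The pair of replicate 1 differed least by the median, which was 0.61, against 1.76 and 1.10.

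**Figure D2:**
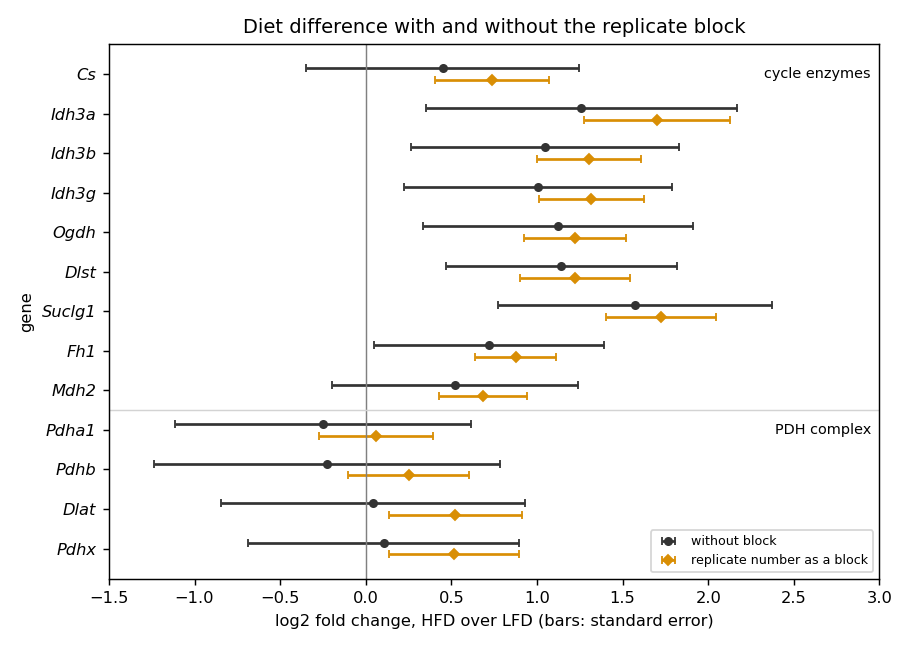
Log2 fold change of HFD over LFD with its standard error, by edgeR, for the cycle enzymes and the pyruvate dehydrogenase (PDH) complex, without a block (black) and with the replicate number as a block (orange). The blocked standard errors are shorter. Without the block the 9 cycle enzymes lie from 0.45 to 1.57 and the PDH complex around 0. With the block the cycle enzymes lie from 0.68 to 1.72 and the PDH complex from 0.06 to 0.52.

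*Cs* encodes citrate synthase, which joins acetyl-CoA to oxaloacetate at the entry of the cycle (ENSMUSG00000005683, chromosome 10 from 128337734 to 128362479 of GRCm38). It had TPM values of 368, 433 and 179 under HFD and 410, 223 and 110 under LFD. LFD replicate 1 exceeded its HFD counterpart in TPM, and the diets overlapped. Its log2 fold change of 0.45 (standard error, SE, 0.80, edgeR adjusted p = 0.919) was the smallest of the 9. Without LFD replicate 3 it was 0.00, without HFD replicate 1 it was 0.04, and without LFD replicate 1 it was 1.55. A snoRNA gene lies inside *Cs* and had at most 1 count.

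Isocitrate dehydrogenase 3 is the NAD-dependent enzyme that makes 2-oxoglutarate, with a catalytic subunit encoded by *Idh3a* and further subunits encoded by *Idh3b* and *Idh3g*. *Idh3a* (ENSMUSG00000032279, chromosome 9 from 54586334 to 54604661) had TPM values of 341, 459 and 151 under HFD and 244, 103 and 45.3 under LFD. The value of 45.3 TPM was the lowest of any member in any mouse, and the LFD-fed mice spread over 5.39-fold. The log2 fold change of *Idh3a* was 1.26 (SE 0.91, edgeR adjusted p = 0.726), with 2.65 without LFD replicate 1 and 0.78 without LFD replicate 3. *Idh3b* (ENSMUSG00000027406, chromosome 2 from 130279309 to 130284547) had TPM values of 542, 612 and 253 under HFD and 397, 220 and 108 under LFD, in the same order. *Idh3g* (ENSMUSG00000002010, chromosome X from 73778963 to 73786897) had TPM values of 481, 477 and 236 under HFD and 362, 178 and 92.3 under LFD. These subunits had similar log2 fold changes of 1.05 for *Idh3b* and 1.01 for *Idh3g* (SEs 0.78 and 0.78). Without LFD replicate 1 they were 2.13 and 2.15, without HFD replicate 1 they were 0.62 and 0.53, and without LFD replicate 3 they were 0.61 and 0.56. The ratio of *Idh3g* to *Idh3b* TPM was 0.867 ± 0.0787 (SD, n = 3) under HFD and 0.859 ± 0.0508 (SD, n = 3) under LFD. The ratio of *Idh3a* to *Idh3b* was 0.659 ± 0.0797 and 0.501 ± 0.102, and overlapped between the diets, with 0.599 in HFD replicate 3 and 0.615 in LFD replicate 1. *Idh3b* shares 5 bases with the antisense gene *Nop56*, which had 430 to 969 counts in a mouse against 1381 to 12546 for *Idh3b*.

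The 2-oxoglutarate dehydrogenase complex makes succinyl-CoA, with *Ogdh* for its first component and *Dlst* for its second, a succinyltransferase. *Ogdh* (ENSMUSG00000020456, chromosome 11 from 6291633 to 6356642) had TPM values of 404, 470 and 152 under HFD and 264, 156 and 86.1 under LFD. *Dlst* (ENSMUSG00000004789, chromosome 12 from 85110833 to 85134845) was at the lowest mean level of the 9, with TPM values of 214, 291 and 105 under HFD and 142, 85.5 and 68.4 under LFD. HFD replicates 1 and 2 lay above all LFD-fed mice in both genes, and HFD replicate 3 lay among the LFD-fed mice. Their log2 fold changes were 1.12 for *Ogdh* and 1.14 for *Dlst* (SEs 0.79 and 0.67, edgeR adjusted p = 0.716 and 0.633). Without LFD replicate 1 they were 2.05 and 1.97, and *Ogdh* was at 0.67 without HFD replicate 1 and 0.71 without LFD replicate 3. The ratio of *Ogdh* to *Dlst* TPM was 1.65 ± 0.222 (SD, n = 3) under HFD and 1.65 ± 0.340 (SD, n = 3) under LFD. *Ogdhl*, a paralog of *Ogdh*, was between 0.03 and 0.34 TPM and did not pass the filter.

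Succinyl-CoA ligase releases succinate and makes a nucleoside triphosphate, and *Suclg1* encodes the alpha subunit that its ATP-forming and GTP-forming versions share. *Suclg1* (ENSMUSG00000052738, chromosome 6 from 73248382 to 73276911) had TPM values of 485, 578 and 188 under HFD and 241, 118 and 80.5 under LFD. Only LFD replicate 1 lay above an HFD-fed mouse. The mean TPM was 2.85-fold higher in HFD-fed mice, and the log2 fold change of 1.57 (SE 0.80, edgeR adjusted p = 0.561) had the highest value of the 9. Leaving out 1 mouse at a time gave 1.13 to 2.64, with the upper value without LFD replicate 1, and the block gave 1.72 (edgeR adjusted p = 0.0960). The expected counts of *Suclg1* were not whole in any of the 6 mice, so some of its reads were shared with other genes. Those of *Cs* were not whole in 3 mice and those of *Fh1* in 1. Its beta subunits differed from each other in their values. *Sucla2*, for the ATP-forming version, had TPM values of 545, 655 and 236 under HFD and 255, 138 and 82.1 under LFD, with a log2 fold change of 1.70 (SE 0.78, edgeR adjusted p = 0.517). *Suclg2*, for the GTP-forming version, had TPM values of 81.2, 106 and 58.0 under HFD and 86.3, 82.6 and 48.2 under LFD, with a log2 fold change of 0.29 (SE 0.48, edgeR adjusted p = 0.911). Within a library, the ratio of *Sucla2* to *Suclg2* TPM was 6.71, 6.20 and 4.06 under HFD and 2.96, 1.67 and 1.71 under LFD. Every HFD-fed mouse was above every LFD-fed mouse in this ratio, which was picked after its values were seen and was not tested.

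Fumarate hydratase turns fumarate into malate, and malate dehydrogenase 2 closes the cycle by making oxaloacetate. *Fh1* (ENSMUSG00000026526, chromosome 1 from 175600374 to 175625635) had TPM values of 250, 284 and 134 under HFD and 208, 149 and 84.6 under LFD. Its log2 fold change was 0.72 (SE 0.67, edgeR adjusted p = 0.804), with 1.58 without LFD replicate 1, 0.28 without HFD replicate 1 and 0.33 without LFD replicate 3. The antisense gene *Kmo* covers 5255 of its 25262 bases and had 43 to 182 counts in a mouse. *Mdh2* (ENSMUSG00000019179, chromosome 5 from 135778480 to 135790398) had TPM values of 448, 470 and 207 under HFD and 449, 256 and 155 under LFD. Its highest LFD value and the HFD value of the same replicate number were nearly equal. The log2 fold change of *Mdh2* was 0.52 (SE 0.72, edgeR adjusted p = 0.887). It was 0.07 without HFD replicate 1, 0.12 without LFD replicate 3 and 1.46 without LFD replicate 1.

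Relative to one another, 5 of the 9 transcripts had shares that did not overlap between the diets. The share of a gene in the summed TPM of the 9 does not depend on the scaling between libraries, and the shares of a mouse sum to the whole, so they cannot all move one way. *Mdh2* held 12.7%, 11.5% and 12.9% under HFD and 16.5%, 17.2% and 18.7% under LFD. *Cs* held 10.4%, 10.6% and 11.2% under HFD and 15.1%, 15.0% and 13.3% under LFD. In both genes every HFD-fed mouse was below every LFD-fed mouse. *Suclg1* held 13.7%, 14.2% and 11.7% under HFD and 8.86%, 7.96% and 9.69% under LFD. It lay above in every HFD-fed mouse, as did *Idh3a* with 9.43% to 11.3% against 5.45% to 8.99%, and *Idh3b* with 15.0% to 15.8% against 13.0% to 14.7%. Shares of *Idh3g*, *Ogdh*, *Dlst* and *Fh1* overlapped. When every tested gene was divided by the same sum, 0.43% lay fully higher and 12.5% fully lower in HFD-fed mice, beside 3 and 2 of the 9 members. That sum had a higher mean under HFD, which moves other genes lower, and the members themselves make it up. The 0.43% and 12.5% are therefore not a like background for the members. The *Suclg1* to *Cs* ratio was 1.23 ± 0.160 (SD, n = 3) under HFD and 0.617 ± 0.102 (SD, n = 3) under LFD, 2.00-fold apart and without overlap. *Suclg1* and *Cs* had the highest and the smallest log2 fold change of the 9. Their ratio was picked after its values were seen and was not tested. Skeletal muscle RNA lay apart between the diets in the same libraries, and its part in these shares was not tested.

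**Figure D3:**
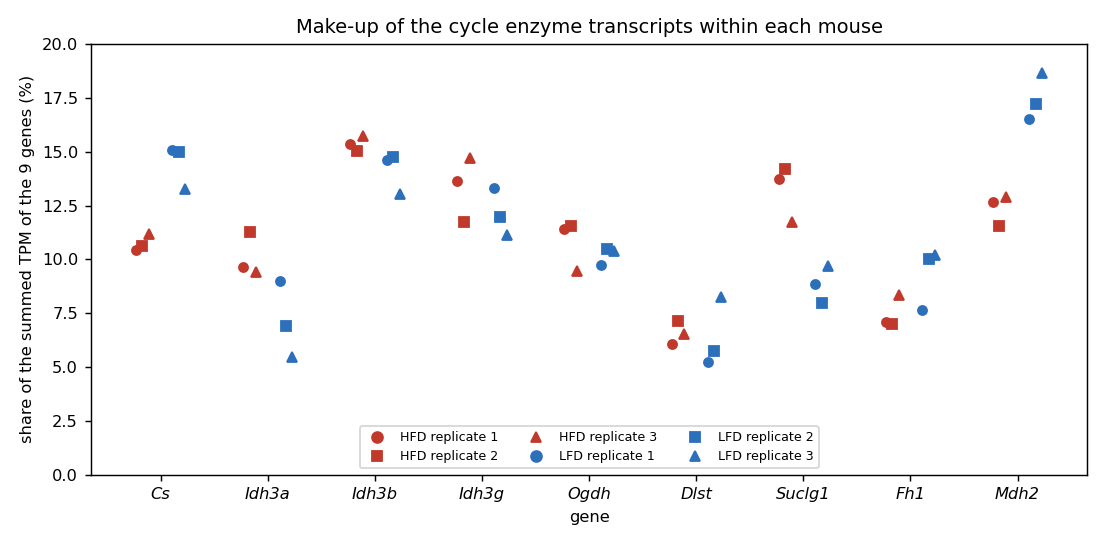
Share of each of the 9 genes in their summed TPM (%), by mouse, with HFD-fed mice in red, LFD-fed mice in blue and symbols for the replicate number. *Cs* and *Mdh2* are lower and *Suclg1*, *Idh3a* and *Idh3b* higher under HFD with no overlap, while the other 4 genes overlap.

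The remaining cycle subunits had the same direction. Of the 9 further genes on that list, 8 were tested, all 8 had a log2 fold change above 0, with a median of 0.73 (0.29 to 1.70), and 0 were called or reached an unadjusted p under 0.05, beside 3.86% of all genes as higher. The largest was *Sucla2* and the smallest *Suclg2*. With the block, 6 of the 8 were higher at an unadjusted p under 0.05, beside 8.75% of all genes, with a median of 0.94. The 13 protein-coding genes of the mitochondrial genome had a median log2 fold change of 1.09 (0.81 for *mt-Co3* to 1.40 for *mt-Nd3*), and 0 of the 13 reached an unadjusted p under 0.05, beside 3.86% of all genes as higher, or 11 with the block, beside 8.75%.

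The PDH complex, which feeds acetyl-CoA into the cycle and is built like the 2-oxoglutarate dehydrogenase complex, had fold changes near 0. Its 4 genes had a median log2 fold change of -0.09, from -0.25 for *Pdha1* to 0.10 for *Pdhx*, with 2 above and 2 below 0 and edgeR adjusted p-values of 0.963 to 0.994. The summed TPM of the 9 cycle genes was 4.02, 4.43 and 4.76 times that of the PDH complex in HFD replicates 1, 2 and 3 and 1.78, 2.34 and 3.04 times in LFD replicates 1, 2 and 3. The diets did not overlap in this ratio. The PDH median rested on LFD replicate 1, without which it was 1.36, and it changed sign with the scaling (0.09 without normalization factors and 0.15 on the log2(TPM + 1) scale) and with the replicate block (0.38). The ratio was picked after its values were seen and was not tested.

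Among genes that carry cycle intermediates across the inner membrane or use them outside it, the means of *Slc25a1* and *Me1* were lower in HFD-fed mice. *Slc25a1*, the citrate carrier, had TPM values of 155, 126 and 50.4 under HFD and 1881, 568 and 143 under LFD. Its log2 fold change was -2.95 (SE 1.20, edgeR adjusted p = 0.465). Among 11 carriers and related enzymes of the cytosol and matrix, 3 had a log2 fold change above and 8 below 0, with a median of -0.50, from -2.95 for *Slc25a1* to 1.31 for *Slc25a13*. At an unadjusted p under 0.05, 1 was higher (*Idh2*, the NADP-dependent matrix enzyme) and 3 were lower (*Slc25a1*, the dicarboxylate carrier *Slc25a10* and the aspartate-glutamate carrier *Slc25a12*), where all genes gave 3.86% and 6.62%. *Idh2* had TPM values of 166, 187 and 117 under HFD and 76.7, 86.2 and 100.1 under LFD, so the diets lay apart, and its log2 fold change was 1.13 (SE 0.38, edgeR adjusted p = 0.374). Among the 9 genes that fill the cycle or use its citrate, the median was -0.21. Malic enzyme *Me1* had the lowest value, -3.65 (SE 1.37, edgeR adjusted p = 0.424), and its TPM was 115, 74.6 and 23.6 under HFD and 2109, 581 and 129 under LFD. *Me3*, a mitochondrial malic enzyme, had the highest value, 0.82, with an edgeR adjusted p of 0.666. With the block, 2 of the 11 were higher and 3 lower at an unadjusted p under 0.05, and 1 and 3 of the 9, where all genes gave 8.75% and 8.76%. None of the genes on these lists met the cutoffs in the edgeR fit.

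Genes whose profile over the 6 mice was most like that of the 9 members were found by the root mean square difference between centred log2 CPM values. The mean profile of the members spanned 3.19 on the log2 scale, from 1.38 in HFD replicate 1 to -1.81 in LFD replicate 3. *Idh3b*, *Ogdh* and *Idh3g* lay nearest to it among the members, at 0.0748, 0.112 and 0.134, and *Idh3a* farthest, at 0.337. The 5 nearest genes outside the lists were *Uqcrfs1* (0.0617), *Uqcrc2* (0.0967), *Eci1* (0.110), *Mecr* (0.111) and *Uqcrc1* (0.115). *Uqcrfs1*, *Uqcrc2* and *Uqcrc1* encode subunits of respiratory complex III, *Eci1* an isomerase of fatty acid oxidation and *Mecr* a reductase of mitochondrial fatty acid synthesis. *Uqcrfs1* ranked above every member. Its TPM was 342, 428 and 151 under HFD and 280, 151 and 85.6 under LFD. The order of the 6 mice was that of the summed cycle genes, with HFD replicate 3 and LFD replicate 2 nearly level.

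The start regions of the members are shown because the genes varied together across mice while *Suclg1* and *Cs* differed most in size. RefSeq windows of GRCm38.p6, 250 bases before to 50 after a gene's start, matched 8 of the 9 members; *Idh3a* had no match, and *Ogdh* had 6 windows for its several starts. The windows of *Suclg1*, of *Cs* and *Mdh2*, and of *Idh3b*, whose profile lay nearest to the mean of the members, read 5′ to 3′ as follows, with capitals for motif matches.
*Suclg1* (chr6:73248255-73248554, plus strand): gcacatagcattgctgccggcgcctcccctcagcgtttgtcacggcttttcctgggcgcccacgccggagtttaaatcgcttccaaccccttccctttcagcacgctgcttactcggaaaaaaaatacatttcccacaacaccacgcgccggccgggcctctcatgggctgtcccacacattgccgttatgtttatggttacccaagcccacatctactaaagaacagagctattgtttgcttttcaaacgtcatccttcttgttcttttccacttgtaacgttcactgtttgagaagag
*Cs* (chr10:128337477-128337776, plus strand): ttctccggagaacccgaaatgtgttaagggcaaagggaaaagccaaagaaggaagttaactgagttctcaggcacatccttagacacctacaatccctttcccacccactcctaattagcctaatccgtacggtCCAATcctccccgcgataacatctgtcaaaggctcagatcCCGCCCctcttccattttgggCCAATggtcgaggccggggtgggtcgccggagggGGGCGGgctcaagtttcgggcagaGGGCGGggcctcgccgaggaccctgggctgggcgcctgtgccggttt
*Mdh2* (chr5:135778399-135778698, plus strand): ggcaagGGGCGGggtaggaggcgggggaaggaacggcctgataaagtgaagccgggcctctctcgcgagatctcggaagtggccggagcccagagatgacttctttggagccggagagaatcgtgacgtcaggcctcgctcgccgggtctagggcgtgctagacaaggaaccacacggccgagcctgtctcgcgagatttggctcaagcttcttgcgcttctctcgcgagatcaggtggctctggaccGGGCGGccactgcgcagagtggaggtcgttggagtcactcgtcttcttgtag
*Idh3b* (chr2:130284402-130284701, minus strand): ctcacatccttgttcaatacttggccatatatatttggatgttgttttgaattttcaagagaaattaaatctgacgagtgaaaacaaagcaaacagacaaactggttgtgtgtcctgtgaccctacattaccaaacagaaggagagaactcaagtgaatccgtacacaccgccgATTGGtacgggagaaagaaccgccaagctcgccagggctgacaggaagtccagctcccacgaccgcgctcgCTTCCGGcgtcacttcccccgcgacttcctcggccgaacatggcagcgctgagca

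Motifs were searched by their letters on both strands, and a match is a description only. The Sp family motif GGGCGG was in 5 of the 8 matched members and in 38.2% of the 27025 genes with a window. CCAAT, bound by NF-Y, was in 4 of the 8 and in 41.1% of all. CCGGAAG, bound by ETS factors such as GABPA, was in *Idh3b*, *Idh3g* and *Dlst* and in 9.93% of all. GCATGCGC, the core of the NRF1 site, was in 1 of the 8 (*Ogdh*) and 3.05% of all, AAGGTCA, a nuclear receptor core motif, in 1 (*Ogdh*) and 5.38%, and AAGATGGC, bound by YY1, in 1 (*Idh3g*) and 3.19%. Some windows of *Ogdh* overlap each other. The *Suclg1* window held none of the 6 motifs, and its RefSeq start at 73248505 lies downstream of the GENCODE start at 73248382. The RefSeq starts of *Mdh2* and *Idh3b*, whose windows held motifs, also lie downstream of their GENCODE starts.

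Marker lists of the cell types that BAT can hold were set beside the members. Summed levels of 9 brown adipocyte markers were, in TPM, 3347, 5012 and 1104 under HFD and 781, 79.4 and 157 under LFD, without overlap, although the mean log2 CPM of the list overlapped. *Ucp1* made up most of this sum in the HFD-fed mice, and its log2 fold change was 3.67 (SE 1.56, edgeR adjusted p = 0.480). All 9 had a log2 fold change above 0, with a median of 1.60. In log2 CPM, 2 of the 9 lay fully higher in HFD-fed mice, beside 6.72% of all genes. LFD replicate 2 was lowest in brown adipocyte markers and highest in muscle markers, and LFD replicate 3 was lowest in the cycle genes. Adipocyte markers shared with white fat were 4939 to 7368 TPM in the HFD-fed and 4003 to 15787 TPM in the LFD-fed mice. Macrophage markers were 2037 to 4201 TPM and 667 to 4720 TPM, and replicate 3 was the highest of both diets, where the cycle genes were lowest. T and NK cell markers were 15.4 to 48.2 TPM and 1.99 to 14.7 TPM, without overlap. Of the 11 tested, 9 lay fully higher in log2 CPM in HFD-fed mice, beside 6.72% of all genes. Endothelial markers were 100.5 to 422 TPM and 123 to 240.1 TPM. *Gapdh*, a glycolytic enzyme that often serves as a reference, had a log2 fold change of -0.47 (SE 0.68, edgeR adjusted p = 0.893). The part of these cell types in the cycle genes was not tested.

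**Figure D4:**
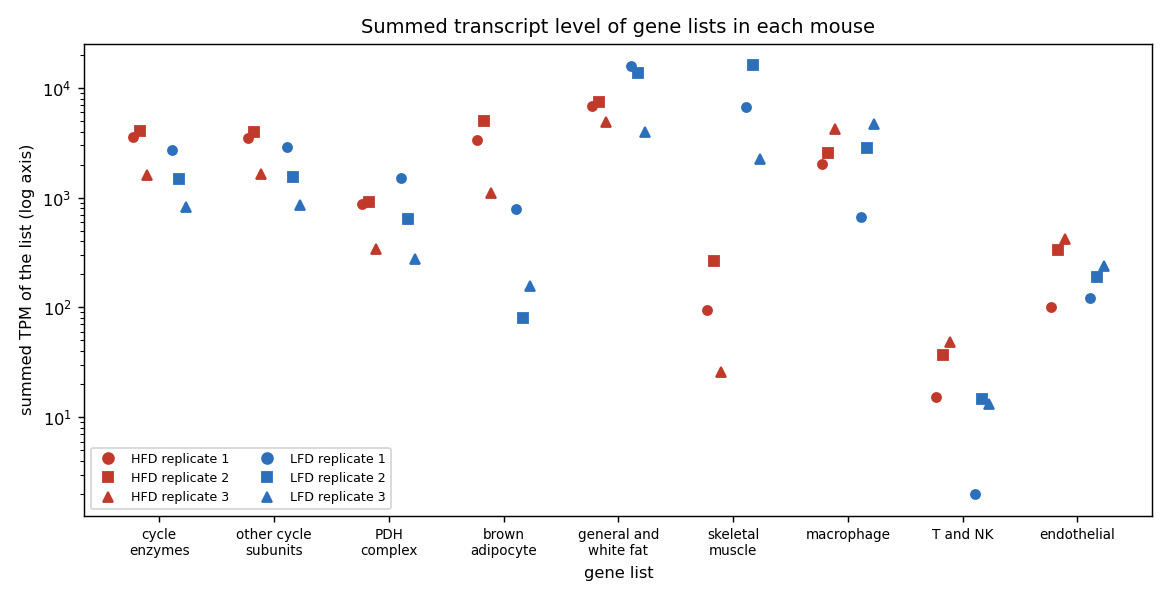
Summed TPM (log axis) of gene lists in each mouse, with HFD-fed mice in red, LFD-fed mice in blue and symbols for the replicate number. The sums of the cycle enzymes overlap between the diets, while the sum of the skeletal muscle markers is lower in every HFD-fed mouse. The sum of the brown adipocyte markers, mostly *Ucp1* in the HFD-fed mice, is higher in every HFD-fed mouse, as is that of the T and NK cell markers.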

How the data were processed

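RNA of interscapular BAT from 6 mice, 3 for each diet, was sequenced after ribosomal RNA removal. After adapter trimming in Trimmomatic 0.36, the authors ran RSEM 1.3.0 on the single-end reads, against GRCm38.p4 and Ensembl genes; the strand setting is not given in the sources used here. The authors deposited expected counts (estimated counts, not normalized) and TPM values, with effective lengths and TPM intervals, for each mouse. Groups and replicate numbers came from the labels.

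Expected counts were rounded and tested in R 4.3.3 with edgeR 4.0.16 (quasi-likelihood, TMM, its own low-count filter, Benjamini-Hochberg over 17668 genes). Common dispersion was 0.201, a coefficient of variation of 0.448. P-values of this fit are set against the spread between these mice, which were chosen by fat mass. Those of the blocked fit are set against the spread left after the block. Deviations from the diet means correlated, across genes, with r = 0.498, 0.229 and 0.522 in the 3 same-numbered pairs, so the numbers of the labels were used as a block in a second fit. Same-diet libraries were not repeats (chi-square per degree of freedom 78.1 to 606). On counts simulated for HFD against LFD with 200 genes changed, edgeR recovered 144 with 2 wrong calls (17232 genes), and with the block 93 with 2 wrong calls (17174 genes). A prior count of 2 entered log2 CPM.

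Alternatives were DESeq2 1.42.0, limma 3.58.1 on log2(TPM + 1), RLE or no normalization factors, other low-count filters, leaving out mitochondrially encoded genes or single mice, other thresholds, a pseudocount of 0.1, and shares of counts. The text names the 9 members, the extremes of each related list, the 5 most like genes, *Ucp1* and *Gapdh*; *Idh2*, *Mdh1*, *Ogdhl*, the lower carriers and the ratios were added after their values were seen. A gene of a related list is counted but not reported here. Members and lists were chosen with earlier results of these data known. Gene positions are from GENCODE M21.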

Additional observations from a re-analysis of the deposited data

How the results depend on the processing

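The median log2 fold change of the 9 members kept its direction under every alternative tried, between 1.00 with limma on log2(TPM + 1) and 1.22 with the replicate block, and between 0.61 and 2.05 with 1 mouse left out. No alternative called a member. The number of members higher at an unadjusted p under 0.05 was 0 and became 1 with DESeq2's default settings, 1 with limma on log2(TPM + 1), 2 without normalization factors and 8 with the replicate block, where the replicate numbers come from the labels and their pairing from correlated deviations; with 1 mouse left out it ranged from 0 to 7 (7 without LFD replicate 1 and 1 without HFD replicate 3). Over all genes, the cutoffs called 411 with DESeq2's default settings and 2 with limma, against 0 in the edgeR fit, where 682 and 1169 genes were higher and lower at an unadjusted p under 0.05; with 1 mouse left out it stayed at 0 to 0. The median of the PDH complex ranged from -0.58 to 1.36 with 1 mouse left out, and was 1.36 without LFD replicate 1. On the log2(TPM + 1) scale the median of all genes shifted to -0.20, from -0.05. With 1 mouse left out, the medians ranged from 0.30 to 1.67 for the other cycle subunits, from 0.53 to 1.87 for the mitochondrially encoded proteins, from -0.74 to -0.01 for the carriers and related enzymes and from -0.29 to -0.10 for the genes that fill the cycle or use its citrate. The number of members whose shares did not overlap was 5 in TPM and 5 in counts. The median difference of the members on the log2(TPM + 1) scale was 1.00, and 0.57 to 1.40 with 1 mouse left out. The cause of these changes was not tested. The lowest count of a member in a mouse was 920.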

Other observations

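The level of the cycle genes was set against that of *Ucp1* in each mouse. The summed TPM of the 9 genes was 1.01 to 2.02 times that of *Ucp1* in the HFD-fed mice, and 6.13, 135 and 10.9 times in LFD replicates 1, 2 and 3. LFD replicate 2 had 11.0 TPM of *Ucp1*, 16027 TPM of skeletal muscle markers and 1489 TPM of the cycle genes. HFD replicate 3 had 796 TPM of *Ucp1*, 25.9 TPM of muscle markers and 1607 TPM of the cycle genes. Which cells the cycle transcripts came from was not tested.

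The matrix malate dehydrogenase and its cytosolic counterpart also differed. The ratio of *Mdh2* to *Mdh1* TPM was 1.22, 1.29 and 1.18 under HFD and 0.556, 0.515 and 1.01 under LFD, without overlap. *Mdh1*, part of the malate-aspartate shuttle, had a log2 fold change of -0.53 (SE 0.80, edgeR adjusted p = 0.901). These ratios were picked after their values were seen and were not tested.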
